A study of Mus musculus with 9 samples.

Results

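The kinesin motor family was examined in CD8+ T cells, over the 42 protein-coding autosomal genes whose symbol begins with Kif and a digit or with Kifc, out of 55471 gene identifiers in the deposited count files. The members were sorted by textbook role into 13 mitotic kinesins, 17 transport kinesins and 12 others, the last including Kif1bp, which fits the naming rule but encodes a kinesin binding protein and not a motor. Of 47 symbols that begin in these ways, 5 were left out, namely the pseudogenes Kif22-ps, Kifc5c-ps and Kif4-ps, the antisense gene Kif16bos, and Kif4, which lies on the X chromosome. All libraries came from mouse T cells carrying OT-I, a transgenic T cell receptor that recognises a peptide of ovalbumin. Cells of the control group (n = 4) were Bdh1-WT and received shCtrl, a short hairpin RNA against firefly luciferase. Cells of the DKO group (n = 5) were Bdh1-KO and received shOxct1, a short hairpin RNA against Oxct1. Bdh1 and Oxct1 encode enzymes of ketone body use, and the study compared cells with and without that pathway.

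Both groups were treated alike apart from these changes. Naive cells were stimulated for 24 h with antibodies to CD3ε and CD28 in 50 U/mL interleukin 2, transduced, grown on in interleukin 2, and sorted for the Ametrine reporter. They were moved into naive C57BL/6 hosts of the CD45.1 type, whose own immune cells the labels do not describe as removed, and the hosts were infected 1 day later with LmOVA, a Listeria strain that makes ovalbumin. On day 7 after infection the donor cells were recovered by sorting for CD45.2 and Ametrine. The labels do not say which animals or cultures the replicates came from, so every p-value measures only the spread between these libraries, which may in part be technical. The labels used here do not state how the Bdh1 gene was removed or how old the animals were.

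Kinesins are motor proteins that use ATP to move along microtubules or to take microtubule ends apart. Mitotic kinesins build the spindle, align and move the chromosomes and complete the cut between daughter cells, and their messenger RNAs are made mainly late in the cell cycle. Transport kinesins carry vesicles, organelles and ciliary cargo in dividing and resting cells alike, and T cells use such motors when lytic granules are brought to the contact with a target cell.

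The targeted genes went the way of the labels. Oxct1 was at 63.2 ± 5.73 CPM (the count of a gene as a share of its library, scaled for composition; SD, n = 4) in control and 5.16 ± 0.370 CPM (SD, n = 5) in DKO, and Bdh1 was at 30.5 ± 4.16 and 10.6 ± 1.24 CPM. For both genes the groups did not overlap, and the exact two-sided permutation test gave p = 0.0159, the smallest that the 126 relabellings allow. Libraries held 45205993 to 59853080 counts in genes. Control replicates 1 and 3 stood apart from all other libraries on the first and second principal components, and results that rest on them are given without them. The defining markers of CD8 T cells (Cd8a, Cd8b1, Cd3e, Cd3d and Cd3g) were all above 1 CPM, with a summed level of 5218 to 6956 CPM in control and 4632 to 5040 CPM in DKO. Summed markers of myeloid cells were also lower in DKO without overlap (166.1 to 200.7 CPM in control, 116.4 to 126.6 CPM in DKO, 8 of 9 genes above 1 CPM). Ctss, Itgam and Cd68 made up most of that sum, while Lyz2 went from 2.43 to 5.85 CPM (log2 fold change 1.27, edgeR adjusted p = 0.206) and Csf1r from 1.84 to 2.37 CPM (0.37, edgeR adjusted p = 0.804). Those of NK cells overlapped (117.2 to 170.4 and 94.5 to 125.2 CPM, 2 of 3 genes above 1 CPM), as did those of B cells (179.0 to 264.1 and 186.9 to 209.4 CPM, 2 of 7 genes above 1 CPM and Pax5 at 0 counts), of erythroid cells and platelets (10.5 to 35.5 and 16.0 to 53.9 CPM) and of CD4 T cells (30.7 to 39.3 and 34.6 to 46.6 CPM). The part of these cell types in the kinesin results was not tested.

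Of the 42 members, 31 had enough counts to be tested, 26 had a mean above 1 CPM over the 9 libraries, and 19 had a mean above 1 CPM per kb of exon. The last scale divides CPM by the summed exon length of the gene, so that genes can be set beside each other. By role, the members above 1 CPM were 11 of 13 mitotic, 11 of 17 transport and 4 of 12 other members. No count was found in any library for 8 members: Kif2b, Kif1a, Kif21a, Kif6, Kif12, Kif26b, Kif27 and Kif28. With 0 counts over all 9 libraries, a level of up to 0.00647 CPM remained possible (3 counts over the 9 libraries; counting error only, since the libraries carry no molecular identifiers). Kif17 (32 counts in all), Kif13a (26 counts) and Kif26a (5 counts, all in DKO replicate 5) were detected but did not pass the count filter.

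Close relatives differed in level, in some groups with 1 gene far above the rest. Kif5b, the conventional kinesin found in most cell types, had the highest level per length of the family at 25.3 CPM per kb, against 0.860 for Kif5c and 0.0717 for Kif5a, its relatives known from neurons. Kif21b, a kinesin that carries cargo and limits microtubule growth, followed at 13.8 CPM per kb, while Kif21a was at 0 counts. Kif1b was at 2.04 CPM per kb with Kif1a at 0 counts, and Kif13b was at 2.29 CPM per kb against 0.00677 for Kif13a. In the kinesin-13 group, which takes microtubule ends apart, Kif2a was at 4.56 CPM per kb, the mitotic Kif2c at 2.25 and Kif2b at 0 counts. Other mitotic relatives were nearer to each other, with Kif18b at 3.15 and Kif18a at 1.57 CPM per kb, and Kif20b at 3.16 and Kif20a at 2.697. The Kif20a level is uncertain, since reads where it overlaps Cdc23 on the opposite strand are missing from the unstranded count. The 2 motor subunits that pair with Kif3a, known for intraflagellar transport, were both above it per length, with Kif3b at 4.24, Kif3c at 1.88 and Kif3a at 0.998 CPM per kb. Of the Kif3c exon sequence, 39.6% of 50-base words also lie in another gene, chiefly 1110002L01Rik on the opposite strand, so its level is uncertain.

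**Figure D1:**
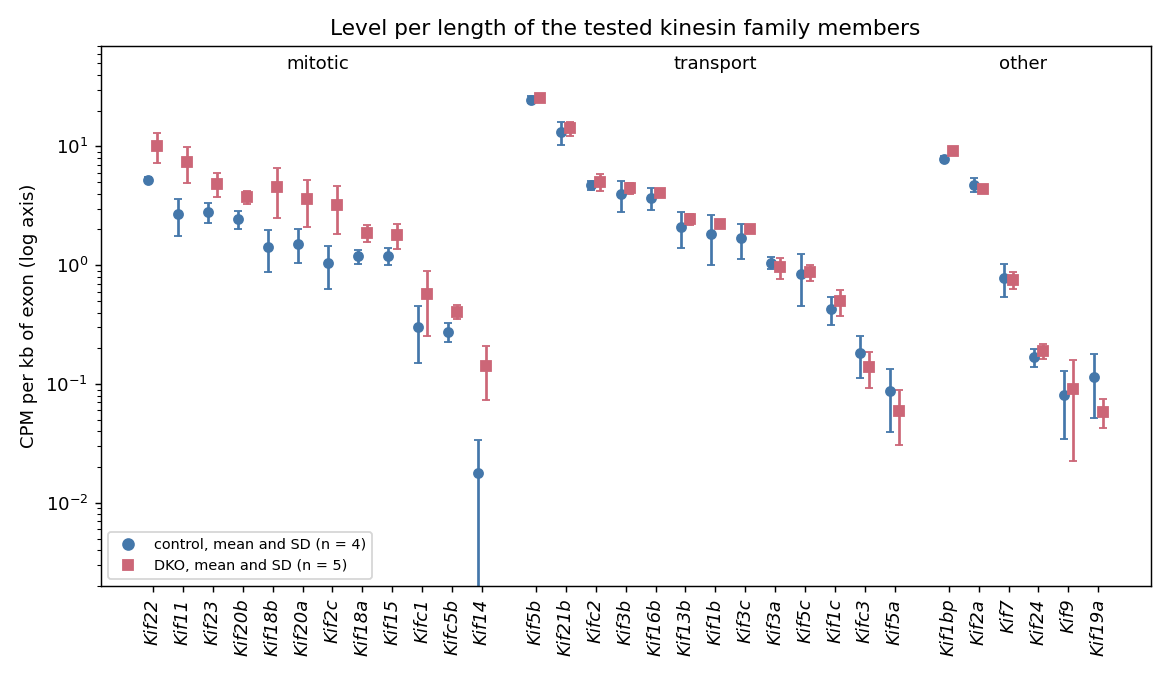
Mean level per length of the 31 tested members (CPM per kb of exon, log axis) in control (circles, n = 4) and DKO (squares, n = 5); bars are SD, and a bar that would reach below zero is cut short. The mitotic members lie higher in DKO from Kif22 to Kif14, while the transport members from Kif5b down to Kif5a have error bars that overlap.

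Most mitotic kinesins rose in DKO, and no transport kinesin passed the test in either direction. Of the 12 mitotic members tested, 8 rose in DKO at an adjusted p under 0.05 (Kif22, Kif11, Kif23, Kif20b, Kif18b, Kif2c, Kif18a and Kif14) and 0 fell, with edgeR's quasi-likelihood test and Benjamini-Hochberg adjustment over 14918 genes. Of all genes tested, 1.32% were called higher and 1.51% lower, 2.83% in either direction. At an unadjusted p under 0.05 stood 11 of the 12. The median log2 fold change of the 12 was 0.93 (range 0.56 to 2.92), against -0.01 over all genes tested. The role lists were chosen with earlier results of these data known, so the range and median depend in part on that choice. Kif2a, which also acts outside mitosis, was placed among the others and had a log2 fold change of -0.12. Kif14 passed the count filter through its DKO libraries, so its place among those tested already requires a difference. Of the 13 transport members tested, 0 were called by edgeR's quasi-likelihood test, DESeq2 or limma-voom. In edgeR 0 had an unadjusted p under 0.05, which 16% of all genes had. Over all 14918 genes, DESeq2 called 1059 and limma-voom 996. The median log2 fold change of the 13 was 0.10 (range -0.55 to 0.27). In 9 of the 12 mitotic members every DKO library lay above every control library, as in 4.62% of all genes tested, and this held for 0 of the 13 transport members. Over the 31 tested members the groups did not overlap in 10, all higher in DKO, against 8.71% of all genes in either direction.

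**Figure D2:**
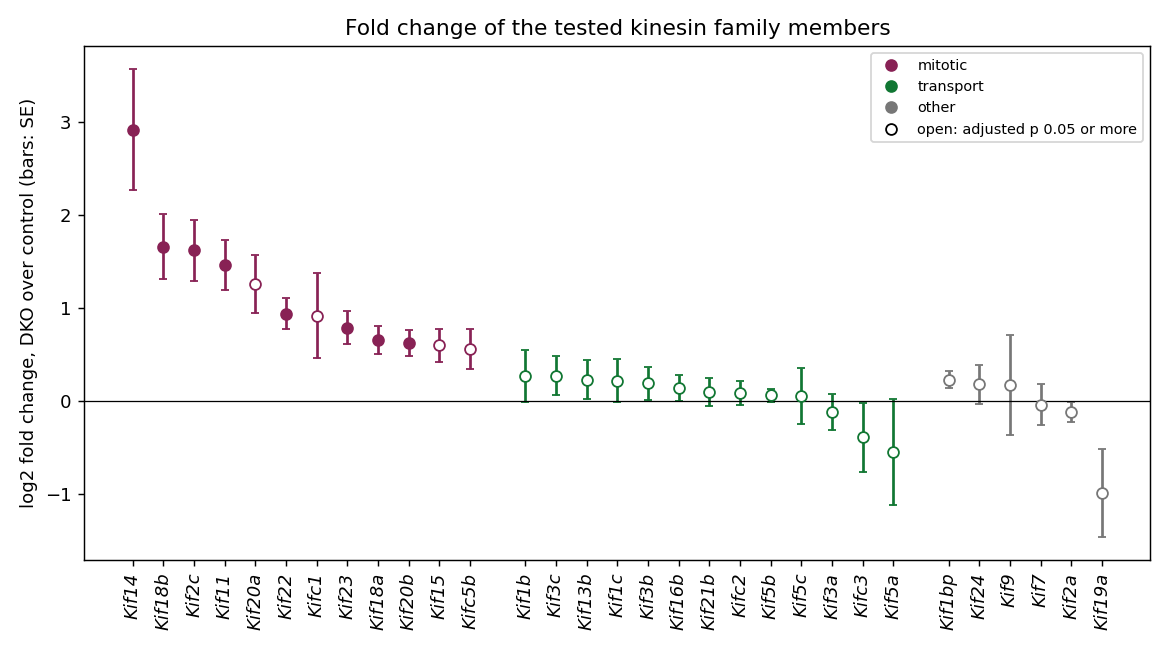
Log2 fold change of the 31 tested members, DKO over control, from edgeR's quasi-likelihood fit; bars are SE, filled points passed an adjusted p of 0.05 and open points did not. All 12 mitotic members lie above zero, from 0.56 to 2.92, whereas the transport members lie between -0.55 and 0.27. The depolymerase Kif2a, at -0.12, is drawn among the other members, and the roles were chosen with earlier results known.

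The cells are bulk samples, so a larger share of cells in mitosis and more of these RNAs in each dividing cell cannot be told apart. Levels of 2 general cell cycle genes moved with the mitotic kinesins. Mki67, which encodes the proliferation antigen Ki-67, was at 18.5, 44.0, 32.7 and 28.5 CPM in control replicates 1 to 4 and at 52.5, 47.4, 55.8, 62.5 and 77.9 CPM in DKO replicates 1 to 5 (log2 fold change 0.94, SE 0.22, edgeR adjusted p = 0.0468). Top2a, the topoisomerase of dividing cells, was at 29.4, 62.1, 51.8 and 52.4 CPM in control and 88.6, 77.0, 96.5, 103.7 and 159.1 CPM in DKO (1.10, SE 0.24, edgeR adjusted p = 0.0346). The groups did not overlap for either gene, and DKO replicate 5 was highest for each gene. The call of Mki67 was lost when control 3, control 4 or any 1 DKO library was left out (edgeR adjusted p 0.0573 to 0.130), and that of Top2a when control 3 or 4 or DKO 1, 3, 4 or 5 was (0.0579 to 0.0853).

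The motors that assemble the spindle and move chromosomes are described first. Kif11 (ENSMUSG00000012443.4, plus strand of chromosome 19, 37376403 to 37421859 in GRCm38) slides spindle microtubules apart so that the poles separate. It was at 12.1, 28.5, 21.6 and 18.01 CPM in control replicates 1 to 4 and at 50.0, 36.6, 48.9, 54.6 and 86.3 CPM in DKO replicates 1 to 5. Every DKO library exceeded the highest control library, and the log2 fold change was 1.46 (SE 0.27, edgeR adjusted p = 0.0172). Kif15 (plus strand of chromosome 9, 122951046 to 123018733), which helps to keep the spindle bipolar, was at 12.3, 16.3, 12.5 and 11.4 CPM in control and 15.8, 15.8, 18.7, 22.4 and 27.0 CPM in DKO. Its groups overlapped, with 3 DKO libraries above the highest control, and it did not pass the test (0.60, SE 0.18, edgeR adjusted p = 0.107), though DESeq2 called it (adjusted p = 0.0198).

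Kif22 (ENSMUSG00000030677.8, minus strand of chromosome 7, 127027729 to 127042471) binds chromosome arms and pushes them away from the poles. It was the mitotic member of highest level per length in the unstranded count, at 5.24 CPM per kb in control and 10.1 in DKO. That ranking leaves out reads of Kif20a where it overlaps another gene. Its CPM was 26.2, 27.0, 25.2 and 24.4 in control and 45.2, 37.0, 45.9, 46.3 and 72.9 in DKO. The control libraries lay close together and all DKO libraries stood above them (0.94, SE 0.17, edgeR adjusted p = 0.0141).

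Among the kinesins that act on microtubule ends, Kif18a (ENSMUSG00000027115.14, plus strand of chromosome 2, 109280738 to 109341747) damps chromosome movement at metaphase. It was at 12.1, 13.3, 11.8 and 9.59 CPM in control and 18.3, 16.8, 18.5, 15.2 and 23.5 CPM in DKO. The groups did not overlap (0.66, SE 0.15, edgeR adjusted p = 0.0365). Its relative Kif18b (ENSMUSG00000051378.10, minus strand of chromosome 11, 102905529 to 102925124), which limits the length of astral microtubules, was at 2.44, 5.64, 7.21 and 5.15 CPM in control and 13.8, 9.08, 13.96, 15.5 and 28.5 CPM in DKO. Again no library of one group reached the other (1.66, SE 0.35, edgeR adjusted p = 0.0316). Kif2c (ENSMUSG00000028678.13, minus strand of chromosome 4, 117159639 to 117182639), a depolymerase that corrects wrong attachments at kinetochores, was at 2.85, 6.76, 3.41 and 5.15 CPM in control and 12.3, 8.57, 10.7, 14.3 and 24.2 CPM in DKO. The lowest DKO library was above the highest control (1.62, SE 0.33, edgeR adjusted p = 0.0266), while the depolymerase Kif2a, placed among the others because it also acts outside mitosis, had a log2 fold change of -0.12 (edgeR adjusted p = 0.640).

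The motors of cytokinesis also lay higher in DKO. Kif23 (ENSMUSG00000032254.10, minus strand of chromosome 9, 61915905 to 61946774) is the motor of centralspindlin, the complex that bundles the central spindle. It was at 21.05, 28.0, 17.7 and 22.0 CPM in control and 32.3, 29.4, 34.8, 44.5 and 50.9 CPM in DKO. Control replicate 2 and DKO replicate 2 came close, but the groups did not overlap (0.79, SE 0.18, edgeR adjusted p = 0.0407). Kif20b (ENSMUSG00000024795.11, plus strand of chromosome 19, 34922361 to 34975745), which acts late in cytokinesis, was at 12.9, 19.6, 18.5 and 16.6 CPM in control and 22.0, 24.0, 25.5, 28.2 and 30.6 CPM in DKO. It had the narrowest spread over DKO libraries relative to its mean among the 4 cytokinesis motors (26.1 ± 3.38 CPM, SD, n = 5), with no overlap (0.62, SE 0.14, edgeR adjusted p = 0.0405).

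Kif14 (ENSMUSG00000041498.13, plus strand of chromosome 1, 136466343 to 136531511), which recruits citron kinase to the central spindle, had the largest log2 fold change of the tested members, 2.92 (SE 0.65, edgeR adjusted p = 0.0371), and the lowest level of the mitotic members tested. Its counts were 7, 23, 0 and 11 in control and 96, 65, 49, 41 and 117 in DKO. That is 0.144, 0.403, 0 and 0.193 CPM against 1.90, 1.10, 1.03, 0.799 and 2.48 CPM, without overlap. The ratio of mean CPM was 7.89, and it rests on 41 counts over the 4 control libraries.

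Kif20a (plus strand of chromosome 18, 34624613 to 34633277), needed for the abscission machinery at the central spindle, was at 3.67, 7.32, 8.65 and 6.77 CPM in control and 13.8, 9.06, 13.4, 15.6 and 27.0 CPM in DKO. All DKO libraries lay above all control libraries, yet the log2 fold change of 1.26 (SE 0.31) did not pass (edgeR adjusted p = 0.0593). It passed with DESeq2 (adjusted p = 0.00121), with a stricter low-count filter (edgeR adjusted p = 0.0459) and without DKO replicate 2 (edgeR adjusted p = 0.0397). Reads where Kif20a overlaps Cdc23 on the opposite strand are missing from the unstranded count. Summed over both strand columns the count given to Kif20a was 3.40 times as large, and the log2 fold change was then 0.55 (edgeR adjusted p = 0.0680). The libraries do not keep the strand, so the added reads may come from either gene and that value may mix the 2.

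The last mitotic pair, Kifc1 and Kifc5b, are minus-end motors of the spindle pole and near copies of each other. Of their 50-base words, 39.7% and 37.4% occur in another gene, so reads could be lost or split between them. Kifc1 was at 0.557, 1.73, 0.774 and 1.04 CPM in control and 1.19, 0.678, 1.79, 2.94 and 3.17 CPM in DKO, with overlap (0.92, SE 0.46, edgeR adjusted p = 0.368). Kifc5b was at 1.26, 1.02, 0.796 and 1.00 CPM in control and 1.80, 1.22, 1.47, 1.54 and 1.48 CPM in DKO, where 4 of 5 DKO libraries exceeded the highest control (0.56, SE 0.22, edgeR adjusted p = 0.240). Neither passed the test.

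**Figure D3:**
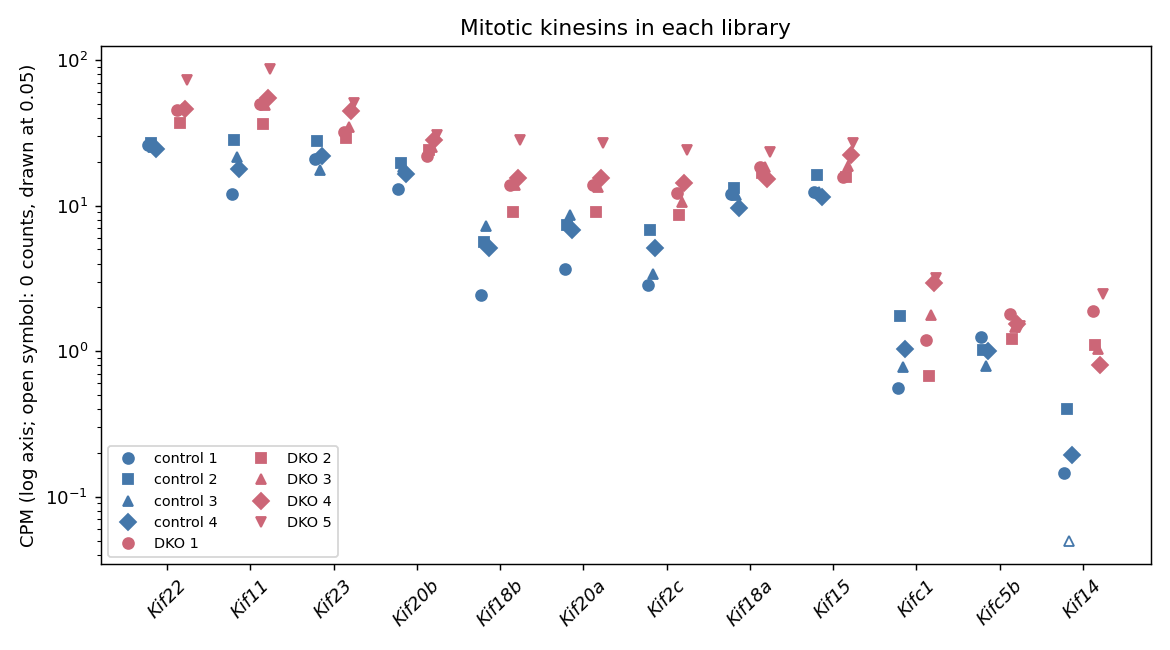
CPM of the 12 tested mitotic kinesins in each library (log axis; control in blue, DKO in red, 1 symbol shape per replicate number; the open symbol marks 0 counts). Groups overlap only for Kif15, Kifc1 and Kifc5b, and DKO replicate 5 is the highest library for 11 of the 12 genes.

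Libraries kept much the same places across the mitotic members. DKO replicate 5 was the highest of all 9 libraries for 11 of 12 genes, and DKO replicate 2 was the lowest DKO library for 9 of 12. Control replicate 2 was the highest control library for 9 of 12, and control replicate 1 was the lowest for 6. The calls depended on single libraries. Without control replicate 4, 0 of the 12 mitotic members were called by edgeR, though 11 had an unadjusted p under 0.05, and the adjusted p was 0.0542 for Kif22 and 0.0642 for Kif11. Leaving out control replicate 3 gave 4 calls, leaving out DKO replicate 1 gave 2, and leaving out DKO replicate 3, 4 or 5 gave 3. Of the fits without 1 library, that without control replicate 4 was the only one in which Kif22 and Kif11 lost the call. Kif2c lost it when control 3, control 4, DKO 1 or DKO 4 was left out (edgeR adjusted p 0.0541 to 0.0703). For Kif23 the libraries that decided it were control 3 and 4 and DKO 1, 3, 4 and 5 (0.0693 to 0.107), and for Kif18b control 2 and 4 and DKO 1, 3, 4 and 5 (0.0509 to 0.0901). For Kif18a they were control 3 and 4 and DKO 1, 2, 3 and 5 (0.0573 to 0.101), and for Kif20b control 3 and 4 and each DKO library (0.0560 to 0.105). Kif14 lost it without control replicate 4 or any DKO library (0.0578 to 0.103). Without control replicates 1 and 3 together, an alternative chosen after seeing the data, 3 mitotic members were called.

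Among the transport kinesins, none of the 8 members of highest level per length passed the test, and their log2 fold changes ran from 0.06 to 0.27. Kif5b (minus strand of chromosome 18, 6201002 to 6242174), the heavy chain of conventional kinesin, was at 188.1, 205.5, 211.3 and 183.0 CPM in control and 209.9, 210.1, 206.8, 196.7 and 203.9 CPM in DKO. The groups overlapped, and its SE was the smallest of the tested members (0.06, SE 0.07, edgeR adjusted p = 0.725). Kif21b (plus strand of chromosome 1, 136131389 to 136177998) was at 113.0, 170.1, 198.9 and 164.0 CPM in control and 158.1, 176.9, 181.2, 205.2 and 144.9 CPM in DKO. The values overlapped, with control replicate 1 lowest (0.10, SE 0.15, edgeR adjusted p = 0.791). The kinesin-14 member Kifc2 was at 16.3, 19.2, 18.8 and 19.7 CPM in control and 24.2, 16.6, 21.5, 17.1 and 19.4 CPM in DKO, which also overlapped (0.09, SE 0.13, edgeR adjusted p = 0.764).

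Kif3b, a subunit of the heterotrimeric kinesin-2, was at 13.6, 28.2, 25.7 and 21.2 CPM in control and 25.1, 28.6, 25.3, 26.0 and 21.1 CPM in DKO (0.19, SE 0.18, edgeR adjusted p = 0.674). Its relative Kif3c was at 6.54, 15.4, 13.03 and 14.9 CPM in control and 16.4, 15.6, 14.8, 14.1 and 14.3 CPM in DKO (0.27, SE 0.21, edgeR adjusted p = 0.576). The groups overlapped for each gene, and control replicate 1 was again the lowest library.

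Of the kinesin-3 group, Kif16b carries early endosomes and was at 24.0, 32.3, 38 and 40.2 CPM in control and 39.5, 36.03, 36.7, 33.0 and 39.5 CPM in DKO (0.14, SE 0.14, edgeR adjusted p = 0.682). Kif13b, a motor of vesicles, was at 13.99, 34.2, 29.95 and 30.7 CPM in control and 33.4, 36.3, 32.9, 28.2 and 28.8 CPM in DKO (0.23, SE 0.21, edgeR adjusted p = 0.647). Kif1b, which moves mitochondria, vesicles and lysosomes, was at 12.3, 41.4, 44.6 and 30.5 CPM in control and 39.8, 37.7, 37.2, 40.3 and 39.4 CPM in DKO (0.27, SE 0.28, edgeR adjusted p = 0.682). The groups overlapped for all 3, and control replicate 1 lay far below the other libraries for each. Control replicate 1 was the lowest control library for 9 of the 13 tested transport members. Without it the log2 fold changes were -0.05 for Kif21b, -0.00 for Kif3b, -0.01 for Kif16b and -0.01 for Kif1b, and the median of the 13 was -0.01.

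The 5 other tested transport members were lower in level and also overlapped. Kif3a had 3.75 ± 0.438 CPM in control and 3.44 ± 0.702 in DKO, Kif5c 6.03 ± 2.78 and 6.23 ± 0.946, and Kif1c, a motor of vesicles, 3.10 ± 0.810 and 3.61 ± 0.874 (SD, n = 4 and n = 5). Kifc3 had 0.967 ± 0.373 and 0.737 ± 0.248 CPM, and Kif5a 0.608 ± 0.331 and 0.416 ± 0.203 CPM. Kif3a, Kifc3 and Kif5a were the 3 with a log2 fold change below 0 (-0.12, -0.39 and -0.55), and edgeR's adjusted p over the 13 transport members ran from 0.576 to 0.959. A missed threshold does not show that the groups were equal: the SE over the 13 ranged from 0.07 to 0.57 on the log2 scale.

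Summed over members, the level per length of the mitotic kinesins was 16.5, 24.2, 20.5 and 19.4 CPM per kb in control replicates 1 to 4 and 37.4, 29.99, 38.02, 42.6 and 63.4 in DKO replicates 1 to 5. Every DKO library had a larger sum than every control library. The same sum for transport kinesins was 47.1, 62.5, 65.9 and 58.5 in control and 63.9, 63.9, 63.6, 62.9 and 59.7 in DKO, where the groups overlapped and control replicate 1 was lowest. The mitotic sum divided by the transport sum within a library was 0.351, 0.387, 0.311 and 0.331 in control and 0.585, 0.470, 0.598, 0.677 and 1.06 in DKO. Only in DKO replicate 5 did the mitotic sum exceed the transport sum. Mitotic kinesins made up 21.8 ± 1.61% (SD, n = 4) of the family's summed level per length in control and 34.8 ± 7.04% (SD, n = 5) in DKO, and transport kinesins 63.2 ± 2.47% and 52.8 ± 5.66%. These sums follow from members chosen by role with earlier results known and carry no test.

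**Figure D4:**
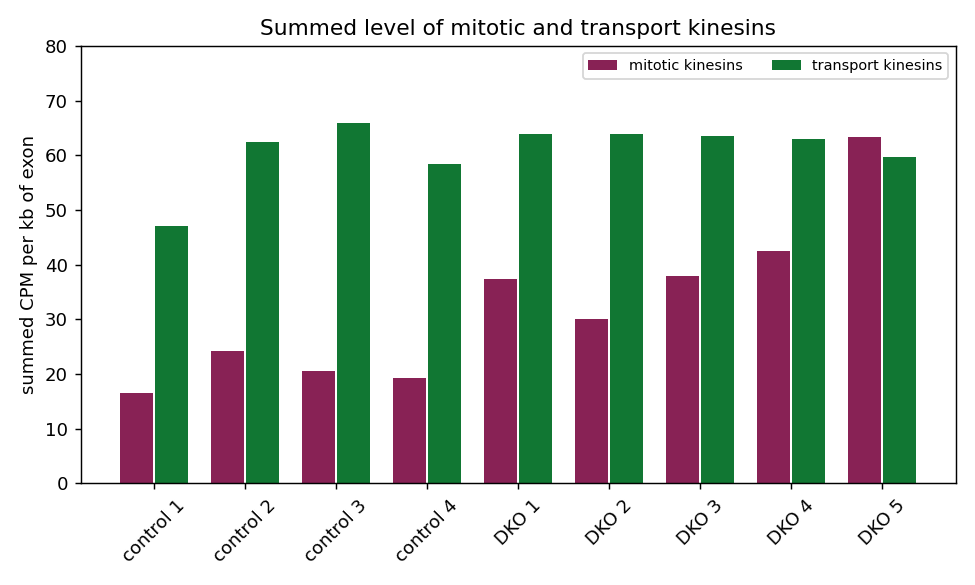
Summed level per length (CPM per kb of exon) of the mitotic and of the transport kinesins, 1 pair of bars per library. The mitotic bars run from 16.5 to 24.2 in control and from 29.99 to 63.4 in DKO, and the transport bars from 47.1 to 65.9 and from 59.7 to 63.9.

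Of the 6 other members tested, 0 passed in edgeR's quasi-likelihood test, DESeq2 or limma-voom, and 1 (Kif1bp) had an unadjusted p under 0.05 in edgeR. Over all 14918 genes tested, edgeR called 2.83% in either direction, and 16% had an unadjusted p under 0.05. DESeq2 called 1059 of these genes and limma-voom 996. Kif1bp, which binds certain kinesins and keeps them off microtubules, was at 38.01, 39.1, 40.4 and 35.5 CPM in control and 44.2, 44.6, 43.9, 50.5 and 40.9 CPM in DKO (0.23, SE 0.09, edgeR adjusted p = 0.216). Its groups did not overlap, as in 8.71% of all genes tested in either direction, and the highest control and the lowest DKO library nearly met. Kif2a was at 35.0, 31.1, 30.5 and 25.4 CPM in control and 27.6, 30.1, 29.4, 28.9 and 24.1 CPM in DKO, with overlap. Kif7, a part of hedgehog signalling at the cilium, had 3.56 ± 1.11 CPM in control and 3.47 ± 0.576 in DKO, and Kif24, which acts at centrioles, 1.35 ± 0.242 and 1.52 ± 0.228. The ciliary members Kif9 (0.349 ± 0.200 and 0.392 ± 0.295 CPM) and Kif19a (0.470 ± 0.258 and 0.238 ± 0.0640 CPM) were near the detection limit of the filter, and the log2 fold change of Kif19a, -0.99, had an SE of 0.47 (edgeR adjusted p = 0.344).

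Genes that work with the motors were taken from 3 lists named by role. Of 14 mitotic partners tested, 9 rose and 0 fell, with a median log2 fold change of 1.28, and 13 had an unadjusted p under 0.05 (edgeR's quasi-likelihood test). Of all genes tested, 1.32% were called higher and 16% had an unadjusted p under 0.05. DESeq2 called 10 and limma-voom 6, against 1059 and 996 of all 14918 genes tested. The 9 comprised Tpx2, which activates Aurora A on the spindle (1.56, edgeR adjusted p = 0.0132), Cdca8 (1.26, 0.0132), Aurkb (1.31, 0.0164) and Birc5 (1.51, 0.0296) of the chromosomal passenger complex, and Ect2, the exchange factor that centralspindlin brings to the division plane (0.88, 0.0258). The kinetochore motor Cenpe, itself a kinesin by sequence though not by name, rose too (1.21, edgeR adjusted p = 0.0461), with the kinetochore gene Kntc1 (2.01, 0.0428) and the spindle genes Spag5 (1.66, 0.0369) and Hmmr (1.49, 0.0454). Tpx2 passed without any single library, and Cdca8 and Aurkb did in all but the fit without control replicate 4 (edgeR adjusted p = 0.0528 and 0.0600). The other 6 kept the call in 1 to 4 of the 9 such fits. All 6 lost it without control 4, DKO 1, DKO 3 or DKO 4, and some of them also without control 1, 2 or 3 or DKO 2 or 5 (edgeR adjusted p 0.0512 to 0.126). Racgap1, the partner of Kif23 in centralspindlin, did not follow: its mean was 468.3 CPM over control libraries against 441.2 CPM over DKO libraries (-0.09, edgeR adjusted p = 0.670). Kif4, the chromokinesin left out for its place on the X chromosome, had means of 4.09 and 12 CPM in control and DKO (1.55, edgeR adjusted p = 0.103).

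Of 15 transport partners tested, among them the kinesin light chains and the adaptors of mitochondria and lysosomes, 0 passed edgeR's quasi-likelihood test. DESeq2 and limma-voom each called 1, against 1059 and 996 of all 14918 genes tested. The median log2 fold change was 0.20. In edgeR's test 6 had an unadjusted p under 0.05, against 16% of all genes tested. Of these 6, 1 is Kif1bp, already counted among the other members. Of 17 genes of dynein and dynactin tested, the motor that walks the other way along microtubules, 0 rose and 1 fell in edgeR's test. Of all genes tested, 1.32% were called higher and 1.51% lower. DESeq2 called 2 of the 17 and limma-voom 3, against 1059 and 996 of all 14918 genes tested. The 1 that fell in edgeR's test was Dync1li1, a light intermediate chain, with 138.6 ± 8.90 CPM (SD, n = 4) over control libraries and 107.1 ± 4.71 CPM (SD, n = 5) over DKO libraries (-0.37, SE 0.07, edgeR adjusted p = 0.0242). The call was lost when control 2, 3 or 4 or DKO 1, 3, 4 or 5 was left out (edgeR adjusted p 0.0528 to 0.0685). The other light intermediate chain, Dync1li2, went the other way without passing (0.37, SE 0.13, edgeR adjusted p = 0.182). By sign, 11 of the 17 were higher in DKO and 6 lower. The median of the 17 was 0.06, and 4 had an unadjusted p under 0.05, against the same 16% of all genes tested.

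Because the mitotic members moved together, their promoters were searched for words known from cell cycle genes, in the RefSeq GRCm38.p6 window from 250 bases before to 50 bases after each start. Of the 42 members, 32 matched an entry of that table, 12 of them mitotic, 11 transport and 9 other. Counts and shares here are of genes, and a gene with more than 1 window counts if any of them holds the word. The word TTTGAA, in either orientation, is a core of the cell cycle genes homology region, where the MuvB complex is known to bind. It was found for 10 of 12 mitotic genes, against 20.2% of the 27025 genes in the table. It was also found for 1 of 11 transport genes (Kif1a, at 0 counts) and 2 of 9 other genes (Kif26b and Kif27, also at 0 counts). In 8 of the 12 mitotic genes it lay within 50 bases of the start, as in 5.72% of all genes, a window chosen after the positions were seen. Counting only the 250 bases before the start gave 5 of 12 mitotic genes and 18.3% of all genes. In Kif18b, Kif20b, Kif23, Kifc1 and Kifc5b the word begins 2 to 30 bases past the start. The 8 stretches near the start are shown as 30 bases each, 5′ to 3′ on the gene's strand, to show the word in its setting. Capitals mark TTTGAA or its reverse complement TTCAAA, and in Kif23 also ATTGG, the reverse complement of CCAAT.
Kif11, chr19:37376351-37376380, plus strand: tcgtctccatttTTCAAAattgaggcgcgg
Kif15, chr9:122951050-122951079, plus strand: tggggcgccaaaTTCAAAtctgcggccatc
Kif22, chr7:127042420-127042449, minus strand: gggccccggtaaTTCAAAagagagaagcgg
Kif18b, chr11:102925104-102925133, minus strand: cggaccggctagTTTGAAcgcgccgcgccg
Kif20b, chr19:34922353-34922382, plus strand: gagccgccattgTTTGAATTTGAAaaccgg
Kif23, chr9:61946780-61946809, minus strand: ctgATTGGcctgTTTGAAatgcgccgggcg
Kifc1, chr17:33890615-33890644, minus strand: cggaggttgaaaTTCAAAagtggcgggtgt
Kifc5b, chr17:26917108-26917137, plus strand: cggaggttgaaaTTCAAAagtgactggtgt

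In Kif11, Kif15 and Kif22 the word begins 17 to 19 bases before the RefSeq start, and in Kif20b it stands 2 times in a row, beginning 8 and 14 bases into the transcript. For Kif15, Kif22, Kif14 and Kif2c the RefSeq start lies inside the GENCODE gene span given above. The same holds for Kifc1, which spans 33875659 to 33890661 on the minus strand of chromosome 17. Whether a word lies before the start therefore depends on the start used. The Kifc1 and Kifc5b stretches are near-identical, as the genes are, and are not independent cases. Kif14 and Kif2c hold the word only farther upstream, at -228 and -103, and Kif18a, though it rose, does not hold it in this window. The related word TTCGAA was found in 0 of 12 mitotic genes (1.80% of all genes). GCGGGAA, a word bound by E2F factors, was also found in 0 of 12 (5.29% of all genes). CCAAT, the word of the factor NF-Y, was searched in either orientation. It was found in 8 of 12 mitotic, 3 of 11 transport and 4 of 9 other genes, against 41.1% of all genes. These include Kif2b among the mitotic genes and Kif6, Kif26b and Kif27 among the others, all at 0 counts in every library. A match describes the sequence and does not show that a factor was bound in these cells.

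**Figure D5:**
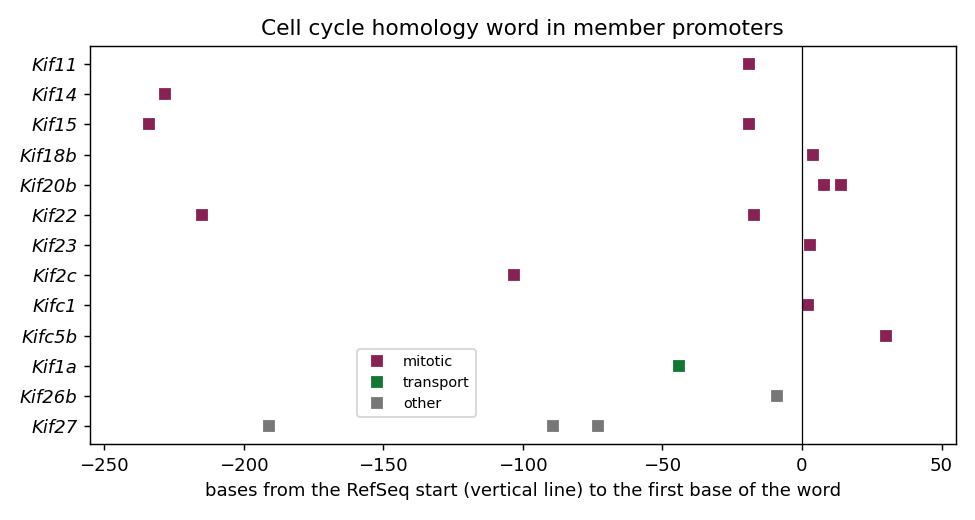
Position of TTTGAA, in either orientation, in the member promoters that hold it: distance in bases from the RefSeq start (vertical line) to the first base of the word, coloured by role. Of the mitotic genes, 8 have a word between -19 and 30, and only Kif14 and Kif2c have none within 50 bases.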

How the data were processed

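Per the labels' protocols, RNA of 9 samples (4 control, 5 DKO) was amplified with Takara SMART-Seq v4 and made into libraries with Nextera Flex. For each library the authors deposited read counts per gene in STAR's output format, unstranded and by strand. The submitters' processing notes list Trim Galore 0.6.0, STAR 2.7.8a and mm10. The first strand column held 49.9 to 50.1% of the strand total, and the unstranded column was therefore analysed. It omits reads with several matches and reads from places where genes overlap on opposite strands. Of 55471 identifiers, 55230 were found in GENCODE M21 without the version number and 54573 with it. Lines that name no gene stayed out of library sizes: by library, 10.3 to 16.7% of reads did not map, 5.80 to 6.79% mapped to several places, 4.01 to 5.20% fell in no feature and 4.97 to 5.31% were ambiguous.

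CPM, with TMM scaling (factors 0.987 to 1.03), and CPM per kb of summed exon were computed here. The test was that of edgeR 4.0.16 on R 4.3.3 (robust quasi-likelihood F-test, all 9 libraries in 1 fit, no covariate), over 14918 genes kept by filterByExpr (minimum count 10, minimum total 15), with Benjamini-Hochberg adjustment at 0.05. On data simulated from these libraries' means for the DKO and control comparison (14918 genes, 200 changed), the test called 67% of 2-fold and 88% of 4-fold changes with 3.73% false calls. On the same data DESeq2 gave 16.7% false calls and limma-voom 3.68%. The counts were drawn 1 time, with edgeR's own estimates of spread, and without libraries that stand apart as control replicates 1 and 3 do. The simulation therefore cannot rank the methods on the real libraries. Genes called by DESeq2 alone were still given less weight. Alternatives were DESeq2 1.42.0, limma-voom 3.58.1, DESeq2 size factors, other low-count filters, summed strand columns, a replicate block, a surrogate variable from sva 3.50.0, and each library left out in turn. Chi-square values between libraries of a group were at least 9.51 per degree of freedom, so none was a duplicate. Replicate numbers did not pair the libraries.

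The members follow a rule on gene names. The role lists, partner lists, markers and words were chosen with earlier results of these data known. Every tested member is named, with values by library for all mitotic members, for the 8 transport members of highest level per length, and for Kif1bp and Kif2a, which were added after their values were seen. Outside the family the rule names Oxct1, Bdh1, Mki67, Top2a and partners past the threshold. Racgap1, Kif4, Dync1li2, Lyz2, Csf1r, Itgam, Cd68 and Ctss were added after their values were seen. Python 3.11.15 was used for the word search.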

Additional observations from a re-analysis of the deposited data

Results flagged for a closer look

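Dixon's test was run on 68 combinations of a gene and a group, where chance gives about 1 in 20, and flagged 5. The 68 include the control combinations, in which DKO replicate 5 cannot be flagged. The 5 flagged genes act in mitosis, so they are not independent draws to set against that rate. In all 5 the library far from the other 4 DKO libraries was DKO replicate 5. Kif22 was at 72.9 CPM in that library, against 37.0 to 46.3 CPM in the others. The same library stood out for 4 mitotic partners. Tpx2 was at 52.9 CPM (others 24.2 to 28.0), Cdca8 at 43.9 CPM (18.6 to 25.8), Aurkb at 40.1 CPM (16.7 to 23.1) and Hmmr at 23.6 CPM (10.4 to 12.8). Without DKO replicate 5, 3 mitotic kinesins were called by edgeR's quasi-likelihood test, against 8 with it. That drop was not particular to this library. Leaving out DKO replicate 3 or 4 also gave 3 calls, leaving out DKO replicate 1 gave 2, and leaving out control replicate 4 gave 0. Over all genes, calls went from 422 to 228 without DKO replicate 5 and to 179 without DKO replicate 1.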

How the results depend on the processing

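No transport or other member was called under any alternative run, and the median log2 fold change of the mitotic members stayed between 0.71 and 1.13. Of the mitotic members, 10 were called by DESeq2, 7 by limma-voom, 9 with a stricter filter, and 8 with the remaining alternatives other than those that follow. Without 1 library, 0 (control replicate 4) to 8 were called, with 2 to 7 in between, and 3 without control replicates 1 and 3 together. With the replicate number as a block, 0 mitotic members (though 10 had p under 0.05 before adjustment) and 67 of all genes were called. The numbers did not pair the libraries (correlations of same-numbered libraries -0.117 to 0.012). DKO replicate 5 has no control of its number, so the block fit draws no comparison from it. Each of the 8 members called in the main fit had a smaller log2 fold change there, such as 0.76 against 0.94 for Kif22 and 1.30 against 1.46 for Kif11. Over all genes, where 422 were called, DESeq2 called 1059, limma-voom 996, the fit with 1 surrogate variable 732, and fits without 1 library 179 to 749. The median of the transport members ran from -0.01 to 0.22 without 1 library and was 0.01 without control replicates 1 and 3 together. Of the 8 transport members of highest level per length, 4 changed sign without control replicate 1. Their log2 fold changes over the fits without 1 library ran from -0.05 to 0.22 for Kif21b, -0.00 to 0.32 for Kif3b (-0.00 also with limma-voom), -0.01 to 0.24 for Kif16b and -0.01 to 0.47 for Kif1b. Kif13b (-0.04) and Kif3c (-0.02) did so without control replicates 1 and 3 together. The cause was not tested. Among promoters, the mitotic genes with TTTGAA numbered 10, or 5 with only the bases before the start and 8 within 50 bases of it. At this depth Kif17, Kif13a and Kif26a had too few counts to be tested.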
